A study of Mus musculus with 24 samples.

Results

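The data described here are 6 arrays of bone marrow-derived macrophages from Stat6 knockout (STAT6 KO) mice that were kept with interleukin-4 (IL-4), 3 with rosiglitazone (RSG) and 3 with its vehicle, out of 24 arrays in all. They were chosen by their labels, which name genotype, cytokine and ligand, and no measured value entered the choice. The mice were C57Bl/6, with WT mice numbered 1 to 3 and STAT6 KO mice numbered 4 to 6, and the labels name each mouse on 4 arrays. All cultures held M-CSF at 20 ng/ml, and a time of 10 days is given for every group. IL-4 was used at 20 ng/ml and RSG at 1 µM, and the vehicle was a mix of DMSO and ethanol. The comparison of interest was STAT6 KO IL-4 RSG against STAT6 KO IL-4 vehicle, with WT IL-4 RSG against WT IL-4 vehicle and STAT6 KO control RSG against STAT6 KO control vehicle set beside it. The knockout is carried by every cell of the mouse, so all cells of these cultures lacked STAT6, those of other blood lineages included.

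RSG is a synthetic ligand of PPARγ, a nuclear receptor that pairs with RXR on DNA and turns on genes of fatty acid uptake, storage and oxidation. The IL-4 receptor signals through STAT6, a transcription factor that drives macrophages into the alternative state. The design asked whether the response to RSG in IL-4-treated macrophages needs STAT6. Interferon-stimulated genes, which take a large part in what follows, are switched on when interferon binds its receptor and transcription factors that include STAT2 and IRF9 enter the nucleus. Many of them code for antiviral proteins, and in macrophages they also follow sensing of foreign or stray nucleic acid.

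Each value is a log2 ratio set by the authors relative to the probe set's median over the arrays. No absolute level is known. The median ratio was 1 for 38889 of 45037 probe sets. A value of 0 lies at the median for these and not for the others. Changes are differences of group means of these log2 ratios ± SE from limma, with n = 3 arrays per group. A probe set was called when it moved 1.5-fold or more and its Benjamini-Hochberg adjusted p was below 0.05, and a gene was read from its probe set with the largest SD over the arrays. Stat6 checked the labels: its log2 ratio lay between -2.03 and -1.56 in the 12 KO arrays and between 0.73 and 1.15 in the 12 WT arrays. Between the 6 arrays of interest it changed by 0.10 ± 0.12.

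More genes were called lower than higher with RSG in STAT6 KO macrophage cultures with IL-4. Of 45037 probe sets, 176 (0.391%) were lower and 56 (0.124%) were higher, which name 123 genes (0.676%) and 42 genes (0.231%). By gene, 96 of 18193 (0.528%) were lower and 26 (0.143%) were higher. The median change over all genes was 0.03. In all 232 called probe sets the 3 RSG arrays and the 3 vehicle arrays did not overlap. The calls were made on these same arrays, so this adds no support to them. Counted by gene, with 1 probe set each, 14.2% of all genes did not overlap, 7.28% higher and 6.89% lower with RSG. At an unadjusted p under 0.05 the same limma fit gave 1907 probe sets higher and 1934 lower. The excess of decreases thus lies among the calls. The called decreases had a median size of 1.21 and reached 3.47, and the called increases had a median of 1.05 and reached 4.10. Of the 176 lower probe sets, 171 had a higher mean in KO vehicle arrays with IL-4 than in KO vehicle arrays without it. With RSG, 130 were still above the vehicle mean without IL-4. Of the 56 higher ones, 6 and 42 were above it with vehicle and with RSG. The IL-4 vehicle arrays entered the choice of both sets, which favours this pattern, and the share over all probe sets was not taken. The counts rest on the spread pooled over the arrays: fitted on the 6 arrays alone, limma called 0 probe sets (1657 higher and 1706 lower at an unadjusted p under 0.05), and on the 12 KO arrays it called 30 higher and 134 lower. Without mouse 5 there were 18 higher and 60 lower, without mouse 6 there were 12 and 68, without the RSG array of mouse 6 there were 26 higher, without the RSG array of mouse 5 there were 37 higher, and without the vehicle array of mouse 5 or 6 there were 112 or 114 lower.

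**Figure D1:**
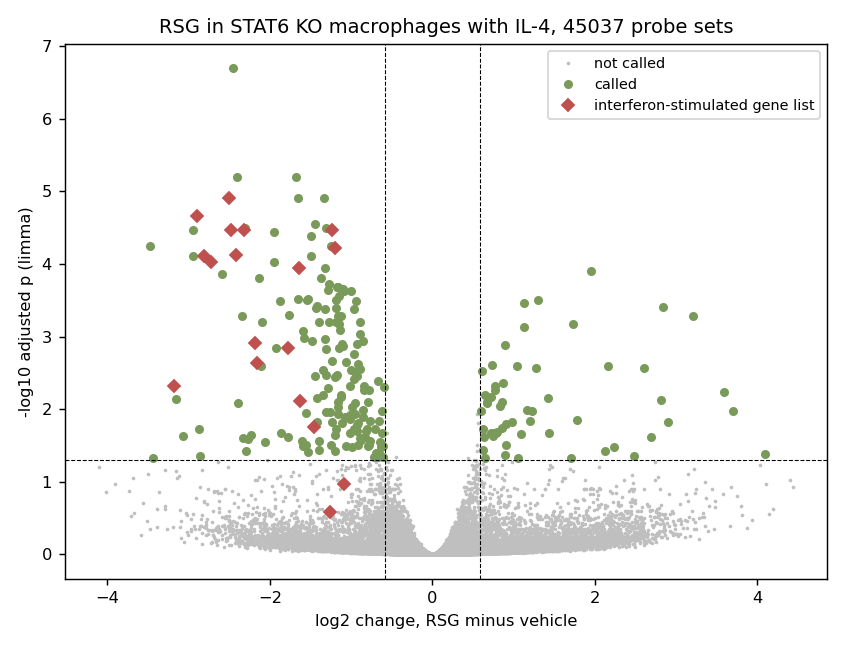
Log2 change with RSG (horizontal axis) against -log10 of limma's adjusted p (vertical axis) for 45037 probe sets. The arrays are of STAT6 KO macrophage cultures with IL-4, 3 against 3. Dashed lines mark an adjusted p of 0.05 and a 1.5-fold change; 16 of the 18 interferon-stimulated genes lie in the called region on the left.

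Interferon-stimulated genes fell together. The arrays also carried markers of other blood cells, described with the marker lists, so these values are those of whole cultures. Of 18 measured genes on the list, 16 were called lower and 0 higher, against 0.528% of all genes called lower. The median change of the list was -2.17 against 0.03 for all genes. The list was written with earlier results of these data known, so its counts are a description with no test. In all 18 the RSG arrays lay below the vehicle arrays, against 6.89% of all genes. The mean log2 ratio of the list was 2.78, 3.11 and 3.22 in the KO IL-4 vehicle arrays of mice 4, 5 and 6, and 1.04, 0.87 and 1.04 in their RSG arrays. Without IL-4 the KO vehicle arrays stood at -0.35, -0.36 and -0.20. All 18 genes were above the KO vehicle mean without IL-4 both before and after RSG, by a median of 3.84 with vehicle and 1.39 with RSG, so RSG took the list part of the way down. With mouse 5 left out 10 of the 18 were called, with quantile normalization 11, and with the 6 arrays alone 0, although 18 had an unadjusted p under 0.05 there.

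**Figure D2:**
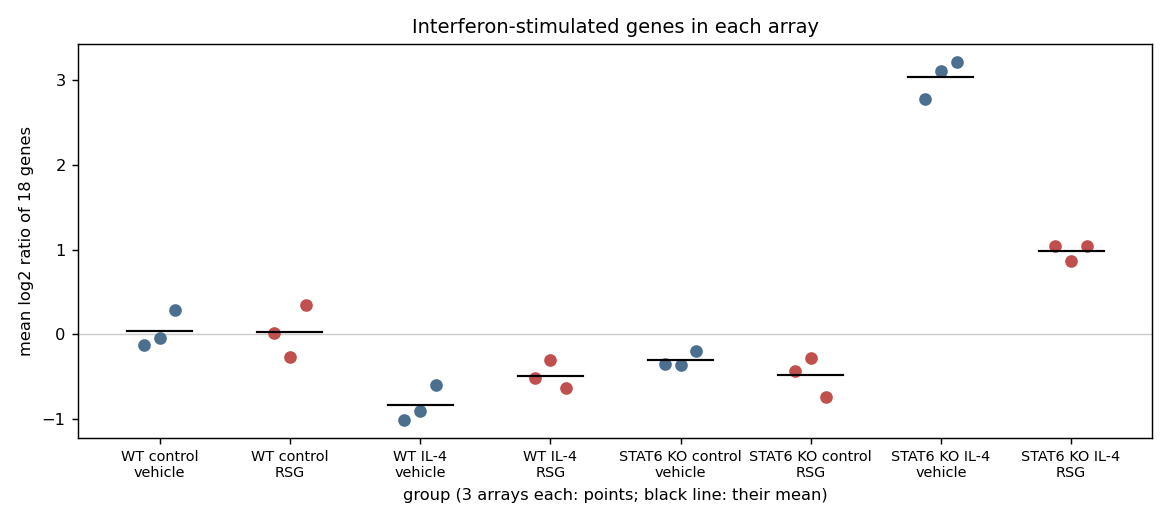
Mean log2 ratio of 18 interferon-stimulated genes (vertical axis) in each of the 24 arrays by group (horizontal axis); points are arrays and black lines are group means of 3. The KO IL-4 vehicle arrays lie between 2.78 and 3.22, the KO IL-4 RSG arrays between 0.87 and 1.04, and the KO control and WT IL-4 arrays below 0.

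The effector genes of the list, whose products act on viral RNA or on the cell that carries it, and their family members are given before its regulators. Ifit1, which binds viral RNA caps, was at 3.64, 3.95 and 4.11 with vehicle and at 1.71, 1.24 and 1.23 with RSG. It fell by 2.50 ± 0.22 (limma adjusted p = 1.22e-05), which is a 5.67-fold change. Ifit3, its partner in the same complex, fell by 2.90 ± 0.27 from 3.94, 4.61 and 4.43 to 1.65, 1.31 and 1.32. The groups were far apart for both genes. The related Ifit1bl1 fell by 3.47 ± 0.36 and Ifit2 by 2.18 ± 0.31. Mx1, an antiviral GTPase, went from 3.86, 4.44 and 4.25 with vehicle to 1.30, 1.39 and 1.43 with RSG, a change of -2.81 ± 0.30 (adjusted p = 7.85e-05). Mx2 fell by 3.18 ± 0.52, but its RSG arrays were uneven, at -0.12 and 0.21 for mice 4 and 5 and 2.00 for mouse 6.

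Rsad2, or viperin, which makes a chain-terminating nucleotide, fell by 2.72 ± 0.30 from 3.00, 3.63 and 3.65 to 0.83, 0.64 and 0.65, and its other 2 probe sets fell by 2.94 and 2.34. Cmpk2, its chromosomal neighbour and a nucleotide kinase, fell by 2.32 ± 0.23. Both moved by a similar size and in every mouse. Among the genes of the oligoadenylate synthetase family, Oasl1 fell by 2.42 ± 0.26, Oasl2 by 1.77 ± 0.26, Oas2 by 1.46 ± 0.28 and Oas1a by 1.23 ± 0.12. Isg20, an RNA exonuclease that was not on the list, fell by 1.94 ± 0.21, and Bst2, or tetherin, by 1.10 ± 0.16. Ifi27, an interferon-induced gene that was not on the list either, rose by 0.62 ± 0.13 (limma adjusted p = 0.0359).

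**Figure D3:**
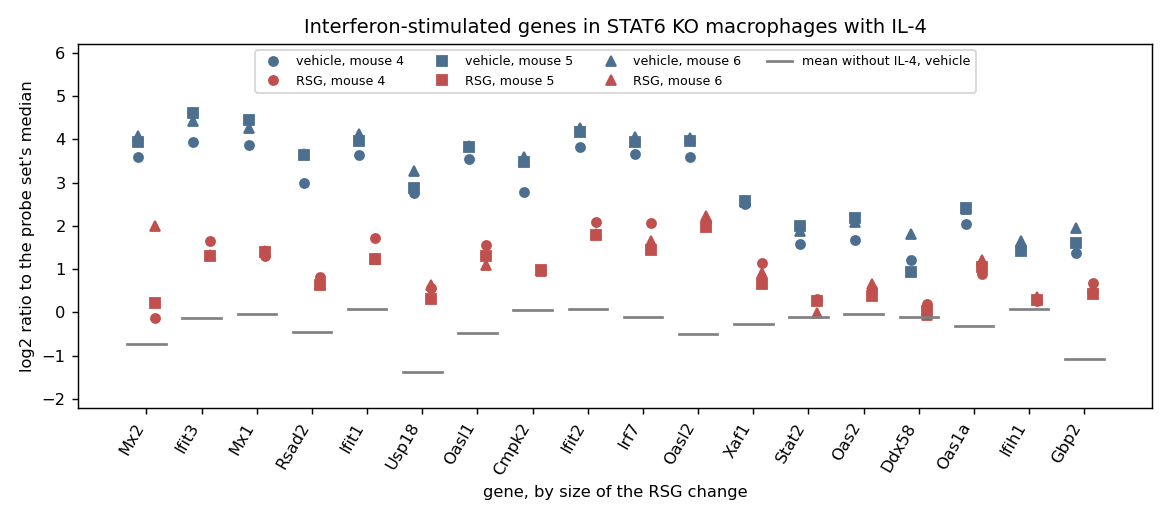
Log2 ratio (vertical axis) of each of 18 interferon-stimulated genes (horizontal axis, by size of change) in STAT6 KO macrophage cultures with IL-4. Blue points are vehicle arrays, red points RSG arrays, and shapes mark the mouse. Grey bars are the mean of the 3 KO vehicle arrays without IL-4. In all 18 genes every red point lies below every blue point.

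Genes that carry the interferon signal fell too. Irf7, the transcription factor that amplifies type I interferon genes, was at 3.65, 3.93 and 4.05 with vehicle and at 2.07, 1.45 and 1.65 with RSG, a change of -2.16 ± 0.33 (limma adjusted p = 0.00235). Stat2, a subunit of the complex that binds interferon response elements, fell by 1.63 ± 0.28 and its second called probe set by 1.34 ± 0.21. Irf9, the DNA-binding subunit of that complex, fell by 0.65 ± 0.13 (adjusted p = 0.0284). Usp18, which removes the ubiquitin-like ISG15 from proteins and damps receptor signalling, fell by 2.48 ± 0.24 from 2.77, 2.88 and 3.27 to 0.57, 0.30 and 0.63. So positive and negative regulators of the pathway were both lower with RSG. A probe set listed for Isg15 and a second gene had the smallest adjusted p of all, and no value is given to either gene.

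To see how far the pattern reached, whole families were read by symbol after the values had been seen, so their counts are a description with no test. Counting a gene as called if any of its probe sets was called, which held for 123 of 18193 genes (0.676%) in the lower direction, 4 of 5 Ifit genes, 5 of 10 Oas and Oasl genes, 4 of 8 p200 genes and 4 of 5 genes of the Trim30, Trim34 and Trim12 group were lower. So were 3 of 9 Schlafen genes, 2 of 6 Gbp genes, 2 of 5 immunity-related GTPases and 4 of 11 Parp genes, namely Parp9, Parp11, Parp12 and Parp14. No member of these families was called higher. With 1 probe set per gene, 6 of 9 Schlafen, 6 of 6 Gbp, 3 of 5 immunity-related GTPase and 4 of 11 Parp genes were lower at an unadjusted p under 0.05. None of them was higher. The largest Schlafen changes, -4.10 ± 0.93 for Slfn4 and -3.15 ± 0.74 for Slfn1, did not pass (limma adjusted p = 0.0631 and 0.0711). Their arrays did not overlap. Of 13 nucleic acid sensors and their adaptors, 7 were lower: the RNA helicases Ddx58, Ifih1 and Dhx58, the RNA sensors Tlr3 and Eif2ak2, and the DNA sensors Cgas and Zbp1. Zbp1 had the largest of these changes, from 3.95, 4.24 and 4.32 with vehicle to 2.02, 2.17 and 1.98 with RSG. The adaptors Mavs, at 0.32 ± 0.12, and Sting1, at -0.54 ± 0.17, were not called.

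The ligands and receptors of the pathway did not pass the test. Of 8 measured genes for interferon alpha, beta and gamma 0 were called, with changes from -1.78 to 0.88, and Ifnb1 changed by -1.06 ± 0.38 (limma adjusted p = 0.365). At an unadjusted p under 0.05 there was 1 lower. Of 6 receptor genes limma called 0, also without adjustment, and all 6 changes lay between -0.24 and 0.15. Among other IRF genes Irf1 changed by -0.52 ± 0.24, Irf8 by -0.11 ± 0.14 and Irf3 by 0.30 ± 0.31. Of 8 IRF genes 2 were called lower, Irf7 and Irf9, and at an unadjusted p under 0.05 limma gave 5 lower and 0 higher.

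The promoters of genes that fell were searched for the core of the interferon-stimulated response element, which STAT2-containing complexes and IRFs bind. The letters were GAAA repeated after any 2 bases, which read TTTC on the other strand, with matches on either strand and overlaps counted, within 250 bases before the transcription start in RefSeq promoters of build GRCm38.p6. Of 123 genes lower with RSG 104 had a promoter entry and 29 of these (27.9%) held a match, against 453 of 14452 genes of the array (3.13%). Of 42 genes higher with RSG 29 had an entry and 1 (3.45%) held a match, Glul. Of 14 listed interferon-stimulated genes with an entry 6 held one. Most lower genes thus had no match in this window, and a match is not a shown binding site. The 250 bases before the start are printed for Ifit3, Rsad2 and Ifit1, the 3 listed genes with a match and the largest decreases, 5′ to 3′ along the gene, with matches in capitals. They lie at chr19:34583279-34583528 on the plus strand, chr12:26456453-26456702 on the minus strand and chr19:34640639-34640888 on the plus strand.

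Ifit3: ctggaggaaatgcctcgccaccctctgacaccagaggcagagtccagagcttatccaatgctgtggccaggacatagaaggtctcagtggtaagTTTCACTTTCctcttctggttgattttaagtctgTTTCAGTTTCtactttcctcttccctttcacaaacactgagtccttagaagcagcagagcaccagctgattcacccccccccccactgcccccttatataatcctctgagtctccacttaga

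Rsad2: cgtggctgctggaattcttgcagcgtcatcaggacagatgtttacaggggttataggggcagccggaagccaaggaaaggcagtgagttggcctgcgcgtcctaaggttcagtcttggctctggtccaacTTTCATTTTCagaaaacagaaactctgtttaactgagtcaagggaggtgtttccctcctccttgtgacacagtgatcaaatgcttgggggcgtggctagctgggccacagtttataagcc

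Ifit1: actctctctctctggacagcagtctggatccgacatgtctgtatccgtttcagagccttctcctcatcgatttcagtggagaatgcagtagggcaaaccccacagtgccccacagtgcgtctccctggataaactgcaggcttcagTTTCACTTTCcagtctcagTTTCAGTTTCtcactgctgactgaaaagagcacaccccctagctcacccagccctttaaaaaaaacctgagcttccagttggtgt

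Ifit3 and Ifit1 each held 2 matches, which start 156 and 122 bases before the start in Ifit3 and 104 and 85 bases before it in Ifit1. Rsad2 held 1 match, 120 bases before the start. AGGTCA repeated after any 1 base, an idealised PPARγ and RXR site, was in the 250 bases of 7 of 14452 genes of the array (0.0484%), and in 0 of the 29 genes higher and 0 of the 104 genes lower with RSG that had an entry. At that frequency the search tells little.

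The decrease of interferon-stimulated genes was then set beside the other RSG responses. In WT macrophages with IL-4, 1 of the 18 genes was called higher (0.418% of all genes were called in each direction) and 0 lower, with a median of 0.37. At an unadjusted p under 0.05 these were 4 and 0. In KO macrophages without IL-4, limma called 0 in either direction (0.225% of all genes), with a median of -0.23 and 3 lower at an unadjusted p under 0.05. Ifit1 moved in opposite directions in the genotypes: it rose by 1.35 ± 0.22 in WT (limma adjusted p = 0.00414) and fell by 2.50 in KO. The starting levels differed, since the list mean was -1.01, -0.91 and -0.60 in the WT IL-4 vehicle arrays and -0.52, -0.31 and -0.64 in the WT IL-4 RSG arrays. The part of the starting level in the difference was not tested.

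The differences between responses were tested themselves. The response of 14 of the 18 genes was lower in KO than in WT with IL-4 (0.368% of all genes were called lower), with a median difference of -2.44. Ifit1 differed by -3.85 ± 0.31 (adjusted p = 9.77e-06), Ifit3 by -3.41 ± 0.38 and Irf7 by -2.86 (adjusted p = 0.00904). In KO, the response of 8 of the 18 was lower with IL-4 than without it (0.11% of all genes), with a median difference of -1.71, and Oasl1 differed by -2.78 ± 0.37. Both tests reuse the 6 arrays of interest and are not independent of the decrease itself. The list, too, was written with earlier results of these data known. The count of 14 was 9, 7 and 8 without mouse 2, 5 or 6 and 7 with quantile normalization. The count of 8 was 4 without mouse 1 or 2, 0 without mouse 4, 5 or 6 and 1 with quantile normalization.

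The calls were then compared between settings. Of 56 probe sets higher with RSG in KO with IL-4, 20 (35.7%) were also called higher in WT with IL-4, which is 13.4% of the 149 called there (0.331% of all), and 7 (12.5%) in KO without IL-4, which is 20.6% of 34 (0.0755% of all). Of 176 lower ones 5 (2.84%) were also called lower in WT, 3.11% of 161 (0.357% of all), and 3 (1.70%) in KO without IL-4, 10.7% of 28 (0.0622% of all). The 5 named Cd14, Cd72, Mef2c, Pde7b and Tmem171. For 90 of the 176 the response was itself lower in KO than in WT by the test of the difference. That test called 0.258% of all probe sets lower. It contains the decrease by which the 176 were picked, so the choice itself favours such calls. Of the same 176, 148 also had a negative change in KO without IL-4, with a median of -0.22. Over all probe sets the median change in that setting was -0.065. In WT with IL-4, 70 of the 176 had a negative change, with a median of 0.07. For 26 of the 176 the response was lower with IL-4 than without it by the test of the difference. That test called 30 probe sets lower in all, and it too contains the decrease by which the 176 were picked. Of the 56 higher ones 45 had a positive change in KO without IL-4 and 42 in WT with IL-4. The share of all probe sets with each sign was not taken. Read the other way, 149 probe sets rose with RSG in WT with IL-4 by a median of 1.11, and their median change in KO was 0.28. Of these, 113 had a positive change in KO, 20 were called and 21 rose less in KO by the test of the difference. The 149 were picked for their rise in WT, which is part of that difference and favours a smaller rise in KO.

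Genes outside the interferon response also fell. Mmp13, a collagenase, was at 2.31, 2.91 and 2.79 with vehicle and at -0.20, 0.16 and 0.30 with RSG, a change of -2.58 ± 0.29 (limma adjusted p = 1.36e-04). In WT it changed by -0.74 ± 0.29 (adjusted p = 0.421), and the difference of -1.84 ± 0.42 did not pass (adjusted p = 0.0764). Slamf9, a surface receptor of the SLAM family, fell by 1.5 ± 0.15, and its response differed from that in WT by -1.67 ± 0.21 (adjusted p = 0.00104). A small set fell in both genotypes. Cd14, the coreceptor for bacterial lipopolysaccharide, fell by 0.81 ± 0.16 in KO and by 0.73 ± 0.16 in WT with IL-4, and its KO arrays went from 0.76, 0.94 and 0.89 to -0.13, 0.18 and 0.12. Cd72, an inhibitory receptor, fell by 1.32 in KO with IL-4, by 0.93 in WT with IL-4 and by 1.48 in KO without IL-4. Pde7b, a cyclic AMP phosphodiesterase, fell by 1.31, 1.05 and 0.79 in these settings on 1 probe set, while the probe set named by the rule changed by -0.89 ± 0.22 in KO with IL-4 and did not pass (limma adjusted p = 0.0989). Tmem171 fell by 1.92 in KO and 1.5 in WT.

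Among proinflammatory cytokines and mediators, 2 of 24 were called lower, the T-cell chemoattractant Cxcl10 and Cd14, with a median of -0.20. Of all genes 0.528% were called lower. In 11 of 24 the RSG arrays lay below the vehicle arrays, against 6.89% of all genes. Cxcl10, itself an interferon-induced gene, fell by 1.87 ± 0.37 from 2.81, 3.42 and 3.64 to 1.58, 1.25 and 1.44, and its response differed from WT by -2.87 ± 0.52 (limma adjusted p = 0.0191). The monocyte chemoattractant genes Ccl7 and Ccl2 changed by -1.67 ± 0.52 and -1.26 ± 0.49 and did not pass. Il1b, at -0.65 ± 0.32, and Tnf, at -0.24 ± 0.25, did not pass either. The list mean was 1.62, 1.68 and 1.97 with vehicle and 1.47, 1.30 and 1.34 with RSG.

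RSG raised a small number of lipid genes. Angptl4, a secreted inhibitor of lipoprotein lipase and a PPAR target, has 2 probe sets that did not pass alike. The probe set named by the rule was at -0.03, -1.61 and -0.07 with vehicle and at 1.10, 1.77 and 1.53 with RSG, a change of 2.03 ± 0.56 (limma adjusted p = 0.152). The other one, shown after its values were seen, was at -0.97, -0.48 and -0.95 with vehicle and at 0.74, 0.95 and 1.12 with RSG, and rose by 1.73 ± 0.23 (adjusted p = 6.71e-04). By that probe set Angptl4 rose by 3.20 ± 0.23 in WT with IL-4 and by 1.74 ± 0.23 in KO without IL-4. The difference between genotypes was -1.47 ± 0.33 (adjusted p = 0.0751) and that between KO with and without IL-4 was -0.01 ± 0.33. Angptl4 thus responded in KO cells, and a smaller response than in WT did not pass the test.

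Aspa, which splits N-acetylaspartate into acetate and aspartate, showed the same pattern. It was at -1.35, -1.86 and -1.90 with vehicle and at 0.16, 0.20 and 0.40 with RSG. It rose by 1.95 ± 0.22 in KO with IL-4 (limma adjusted p = 1.24e-04), by 2.73 ± 0.22 in WT with IL-4 and by 1.81 ± 0.22 in KO without IL-4. Cav1, the coat protein of caveolae, rose by 2.17 ± 0.33 from -1.20, -0.87 and -1.16 to 0.80, 1.16 and 1.32, and by 3.26 ± 0.33 in KO without IL-4. That last value includes an array with a high level of stromal genes, described with the marker lists. Abhd3, a phospholipase, rose by 1.42 ± 0.24 in KO and 1.65 ± 0.24 in WT.

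In fatty acid oxidation 2 of 24 genes were called higher (0.143% of all genes were called higher), with a median of 0.28. For 12 of 24 the RSG arrays lay above the vehicle arrays and for 0 below, against 7.28% and 6.89% of all genes. Ech1, an auxiliary enzyme for unsaturated fatty acids, went from -0.63, -0.57 and -0.65 to -0.07, 0.13 and 0.29, a rise of 0.73 ± 0.11 against 0.81 ± 0.11 in WT. Hadhb, the thiolase subunit of the mitochondrial trifunctional protein, rose by 0.67 ± 0.12. These are small changes in which no arrays overlapped. Acaa2, a thiolase, changed by 0.43 ± 0.10 in KO (adjusted p = 0.0817) and rose by 1.13 in WT. Of the 24 genes it was the 1 whose response was called lower in KO than in WT, with a difference of -0.70 ± 0.15 (limma adjusted p = 0.0487). In WT 4 of the 24 were called higher, with a median of 0.35.

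Among cholesterol efflux genes 2 of 15 were called higher (0.143% of all genes were), with a median of 0.21. Lpcat3, which puts polyunsaturated chains into phospholipids, rose by 0.74 ± 0.15, and Pltp, the phospholipid transfer protein, by 0.65 ± 0.14 and by 0.78 ± 0.15 on its second probe set. In WT the same Pltp probe sets changed by 0.23 and 0.44 and did not pass, and neither did their differences between genotypes. Abcg1, a sterol exporter, changed by 0.88 ± 0.23 from -0.91, -0.84 and -0.96 to -0.17, -0.04 and 0.14 but did not pass (limma adjusted p = 0.119). Of 22 lipid droplet genes 0 were called by the named probe sets and 1, Angptl4, by any. Of 16 genes of fatty acid uptake 0 were called by the named probe sets and 1, the scavenger receptor Msr1, was lower by another. Of 17 sterol and fatty acid synthesis genes and of 8 adipocyte genes limma called 0, with 0 and 1 at an unadjusted p under 0.05.

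**Figure D4:**
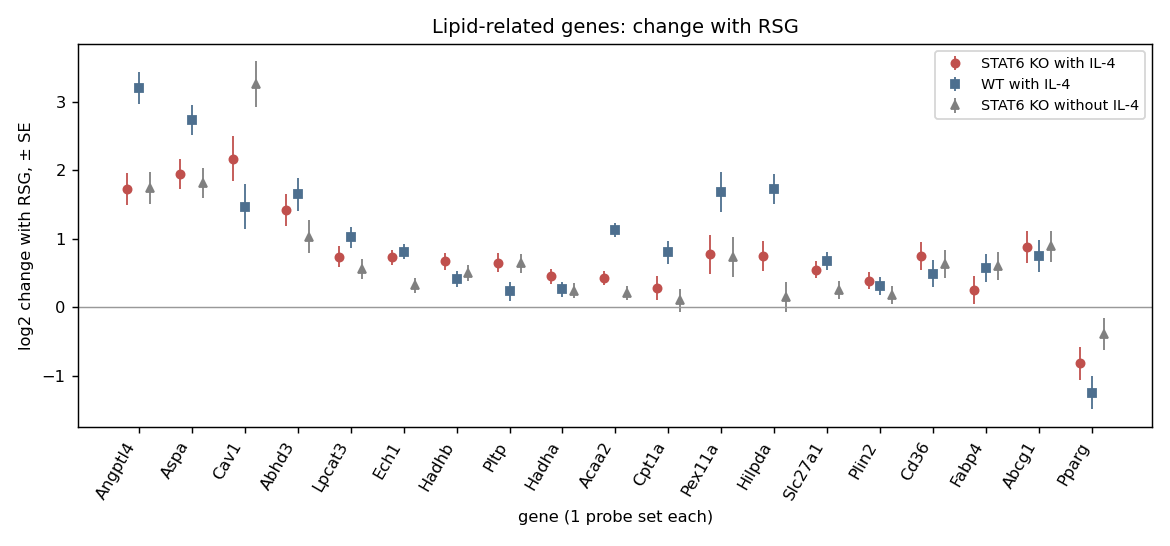
Change in log2 ratio with RSG ± SE from limma (vertical axis) for 19 lipid-related genes, 1 probe set each (horizontal axis), in STAT6 KO with IL-4 (red), WT with IL-4 (blue) and STAT6 KO without IL-4 (grey), 3 arrays against 3 in each. Angptl4 is shown by its called probe set; it and Aspa rose in all 3 settings, and Acaa2 rose by 1.13 in WT against a change of 0.43 in KO with IL-4.

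Fabp4, Cd36, Pdk4 and Scd1, which the study names, did not pass in KO cells with IL-4, and neither did Plin2. Fabp4, the fatty acid binding protein, was at -1.41, -1.06 and -1.51 with vehicle and at -1.07, -1.10 and -1.07 with RSG, a change of 0.25 ± 0.20. Its other 3 probe sets changed by 0.64 (limma adjusted p = 0.0649), 0.58 and -0.17, so they disagree. In WT with IL-4 the 4 Fabp4 probe sets changed by 0.57, 0.42, 0.55 and 0.84 and did not pass either. Cd36, the fatty acid and scavenger receptor, changed by 0.75 ± 0.20 (adjusted p = 0.125), by 0.52 and by 0.42 on its 3 probe sets, and on the first of these it was at -0.51, -0.04 and -0.59 with vehicle and at 0.09, 0.40 and 0.63 with RSG. Plin2, the coat protein of lipid droplets, changed by 0.39 ± 0.13 and Pdk4, a kinase that limits glucose oxidation, by 0.88 ± 1.01. Scd1, a stearoyl-CoA desaturase, changed by -0.38 ± 0.73 in KO and by 2.34 ± 0.73 in WT with IL-4, where it did not pass either. The difference of -2.72 ± 1.03 did not pass (limma adjusted p = 0.483), and the other Scd1 probe set changed by 0.71 in KO. For Fabp4, Cd36 and Plin2 the tests of the difference between genotypes did not pass either.

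Pparg itself was at 0.15, 0.47 and 0.27 with vehicle and at -0.75, -0.60 and -0.23 with RSG. The change of -0.82 ± 0.24 did not pass (limma adjusted p = 0.216), while in WT with IL-4 Pparg fell by 1.25 ± 0.24 (adjusted p = 0.0187), and the 2 changes differed by 0.43 ± 0.34. The mean level of Pparg was 0.30 in KO IL-4 vehicle arrays and 2.58 in WT IL-4 vehicle arrays. Of 13 measured PPARs, RXRs and coregulators 0 were called by limma, with 1 higher and 1 lower at an unadjusted p under 0.05.

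Several genes that are no member of a list also rose, and are named after their values were seen because 2 of their probe sets were called. Of the 30 higher genes with several probe sets, 8 had 2 or more called, Pltp of the efflux list among them. Sort1, a sorting receptor, rose by 1.13 and 0.84, and Glul, glutamine synthetase, by 0.89 and 0.80. In WT with IL-4 they rose by 1.00 and 0.88, and by 0.88 and 0.72. Samd4, an RNA-binding protein, rose by 1.28 and 1.12 and Adgrl2, an adhesion receptor, by 0.74 and 0.72. These 2 were not called in WT, where Samd4 changed by 0.53 and 0.58 and Adgrl2 by -0.09 and -0.06. Their difference between genotypes did not pass (limma adjusted p from 0.128 to 0.518). Frk, a tyrosine kinase, rose by 3.70 and 1.44 on 2 of its 4 probe sets, where the vehicle arrays of the first were at -5.39, -2.34 and -4.92 and the RSG arrays at -0.84, -0.82 and 0.13.

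Other large increases stood on 1 probe set and mostly were not shared by the same gene's other probe sets. Tia1, an RNA-binding protein of stress granules, rose by 3.59 ± 0.61 on 1 probe set, and its other 5 changed by -0.36 to 0.09. Atg4b, a protease of autophagy, rose by 2.61 on 1 and changed by 0.11 and 0.14 on the other 2. Gpr26, Sema4b, Uba1y and the homeobox gene Barhl1 rose by 2.82, 2.84, 2.13 and 4.10 on 1 probe set, and their other probe set changed by -0.11, 0.40, -0.50 and -0.80. Col4a1, a basement membrane collagen, rose by 2.48 on 1 probe set (limma adjusted p = 0.0446) and by 3.50 in KO without IL-4. That last value includes RSG arrays with high stromal markers, described with the marker lists, whose part was not tested. The probe set of Col4a1 with the largest SD changed by 2.05 ± 0.80 in KO with IL-4 and did not pass. Gm29771, which rose by 3.20, and 4930431F12Rik, which rose by 2.23, have 1 probe set each, as do Gm15848 and Pabpc2, which fell by 2.87 and 2.40. Phf11d, which stands among the 12 largest decreases, fell by 2.40 ± 0.19 from 2.57, 3.19 and 3.09 to 0.61, 0.58 and 0.46.

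None of 24 genes of alternative activation was called in KO with IL-4, with a median of 0.11, and limma gave 0 calls also with each array centred. At an unadjusted p under 0.05 there were 1 higher and 2 lower. The list mean was 0.42, 0.65 and 0.97 with vehicle and 0.26, 0.59 and 0.44 with RSG, below the WT IL-4 vehicle arrays at 2.96 to 3.17. Arg1, or arginase, had the largest change on this list. It was at 2.56, 3.63 and 4.17 with vehicle and at -0.74, 0.49 and 0.74 with RSG, and its change of -3.29 ± 1.00 did not pass (limma adjusted p = 0.234) although the arrays do not overlap. The eosinophil chemoattractant Ccl24 changed by -2.83 ± 0.66 (adjusted p = 0.0686). Chil3, Retnla and Mrc1 changed by 0.17 ± 0.36, 0.23 ± 1.29 and 0.20 ± 0.20, Ccl17 by 0.83 ± 0.79 and Alox15 by 0.61 ± 0.91. The wide errors of Arg1, Retnla and Alox15 leave sizeable changes possible. Of 16 genes of IL-4 receptor, JAK and STAT signalling 0 were called by the named probe sets, and the receptor subunit Il13ra1 fell by 1.19 ± 0.23 on another.

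The arrays of KO cells with IL-4 carried markers of other blood cells besides those of macrophages, with vehicle and with RSG. In bulk RNA fewer cells of a type and less RNA per cell cannot be told apart. The mean of 14 mast cell and basophil markers was 4.58 to 5.15 with vehicle and 5.12 to 5.47 with RSG, against -1.21 to 0.07 in KO vehicle arrays without IL-4, and 0 of 14 were called, although in 8 the RSG arrays lay above the vehicle arrays, against 7.28% of all genes. The mean of 11 neutrophil and granule precursor markers was 3.24 to 3.62 and 3.32 to 3.62, with 0 called. Lymphocyte markers were lower on average with RSG, as the interferon-stimulated genes were. Their mean was 2.59 to 3.14 with vehicle and 2.09 to 2.48 with RSG, with a median change of -0.56, 0 of 17 called and 9 of 17 with RSG arrays below all vehicle arrays, against 6.89% of all genes. Cd3d went from a mean of 4.66 to 4.09, Gzmb from 6.53 to 6.06 and Gzma from 2.28 to 0.95. Ifng, the interferon that such cells make, changed by -0.11 ± 0.97. The part of these cells in the decrease of interferon-stimulated genes was not tested, and on ratios no marker can be read as absent.

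Macrophage identity genes had a list mean of -0.07 to 0.03 with vehicle and -0.26 to -0.07 with RSG, with a median change of -0.02 and 1 of 14 called lower, Cd14. At an unadjusted p under 0.05 limma gave 4 of the 14 lower and 1 higher, and in 4 the RSG arrays lay below the vehicle arrays (6.89% of all genes). Dendritic cell markers had means of 0.84 to 1.17 and 0.63 to 1.02, with 0 of 13 called and 6 with RSG arrays below the vehicle arrays, beside the same 6.89%. Of 5 eosinophil, 11 erythroid and megakaryocyte, 8 endothelial and 12 osteoclast markers 0 were called, nor were any of 19 proliferation, 9 MHC class II or 16 glycolysis and hypoxia genes. Without adjustment limma gave at most 1 gene at p under 0.05 in each of these lists from the eosinophil list on and in the lymphocyte list, 0 in the mast cell and neutrophil lists, and 3 in the dendritic cell list. Stromal fibroblast markers were low in all 6 arrays, at -1.05 to -0.29. They were high in the KO control RSG arrays, at 1.15, 1.52 and 5.55 for mice 4, 5 and 6. Their part in the values without IL-4 was not tested. With that array of mouse 6 and 2 WT control vehicle arrays that stood apart left out, 16 of the 18 interferon-stimulated genes were again called lower.

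**Figure D5:**
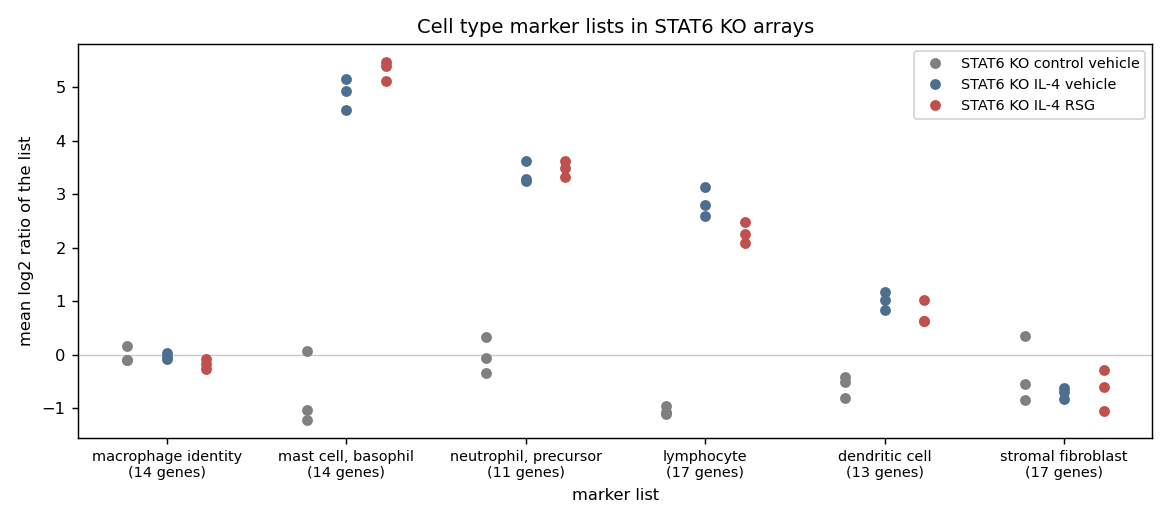
Mean log2 ratio (vertical axis) of 6 marker lists (horizontal axis, with the number of genes) in each STAT6 KO array; grey is control vehicle, blue IL-4 vehicle and red IL-4 RSG, and each point is 1 array. Mast cell, neutrophil and lymphocyte lists are high in the IL-4 arrays with and without RSG, and the lymphocyte list is at 2.59 to 3.14 with vehicle and 2.09 to 2.48 with RSG.

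Differences in response between genotypes or with IL-4 were also found in genes that did not pass the test in KO with IL-4. Nfkbiz, an inhibitor of κB family member, changed by -0.06 ± 0.27 in KO and rose by 3.41 ± 0.27 in WT on the named probe set. The WT rise started from IL-4 vehicle arrays at -5.72, -6.39 and -6.64, close to the lowest ratio in the data, 0.01. Its other probe sets changed by 0.14 and 0.09 in KO. Ppp1r3c, a glycogen-targeting phosphatase subunit, changed by -0.63 ± 0.62 in KO and fell by 5.55 ± 0.62 in WT, and Morn4 changed by -0.27 ± 0.31 and fell by 2.65 ± 0.31. Mmp12, the macrophage elastase, changed by -0.29 ± 0.24 in KO with IL-4 and fell by 2.20 ± 0.24 in KO without IL-4. Ptx3, Rai14 and Enpep changed by -1.10 ± 0.74, -1.46 ± 0.55 and -2.06 ± 0.65 in KO with IL-4, where their arrays did not overlap but the test did not pass. They rose by 4.80, 3.48 and 3.89 in KO without IL-4, in the group that holds the arrays with high stromal markers, and their part in those values was not tested.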

How the data were processed

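RNA of 24 cultures, 3 mice in each of 8 groups, was hybridised to 1-colour Affymetrix mouse genome arrays. The deposited values are linear ratios. The authors summarised probe sets with GC-RMA, scaled each array to its median in GeneSpring and set each probe set relative to its median over the arrays. In the deposited values 38889 of 45037 probe sets have a median of 1, and the others do not. The submitters' processing notes also name GCOS, with no version. Their methods also name division by vehicle controls, which the deposited ratios do not carry. The ratio holds no absolute level, so levels are not compared between probe sets and signal over background is unknown. The lowest ratio, 0.01, is held by 37 values.

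Log2 ratios of 45037 probe sets, after 64 control probe sets were left out, were fitted with limma 3.58.1 in R 4.3.3 as 8 groups over all 24 arrays (16 residual degrees of freedom), with eBayes without a trend and Benjamini-Hochberg adjustment over all probe sets. SEs are pooled over the arrays. Differences between responses are contrasts of the same fit. The fit was tested on simulated data. The platform annotation gave 34945 probe sets 1 symbol, 932 several and 9160 none; 34741 matched RefSeq. Tables and figures were made with Python 3.11.15, pandas 2.3.3, numpy 2.4.6 and matplotlib 3.10.9.

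Genes were named if the study text used them, and Plin2 was added to these. Others were among the 12 largest called changes in each direction without overlap, or among up to 4 called members of each list. The 8 largest called differences in each direction between genotypes, or between KO with and without IL-4, were named as well. Members, lists and families were chosen with earlier results of these data known, and other genes are named after their values were seen. The arrays of 1 mouse pair across groups because the labels name the same animal for them. Over 36 such pairs the deviations from group means correlated by -0.023 to 0.046, and 0 pairs exceeded 0.1. Only 3 mice of each genotype were used, so p-values measure the spread between these cultures. No pair of arrays was identical. Alternatives were a mouse block, a variance trend, quantile normalization, centring, a median filter, fewer arrays, the methods' t-test and leaving out mice or arrays. Leaving out 3 arrays that stood apart, and counting any probe set of a gene, were chosen after seeing the data.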

Additional observations from a re-analysis of the deposited data

Results flagged for a closer look

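Responses to RSG that differed between genotypes or with IL-4 by limma's test of the difference are given here as log2 differences. Groups of 3 arrays allow no test for a single array that stands out. Between genotypes with IL-4, KO minus WT, the interferon-related genes differed by -3.85 (Ifit1), -3.69 (Ifit1bl1), -3.41 (Ifit3), -3.11 (Mx1), -2.67 (Oasl1), -2.52 (Rsad2), -2.35 (Usp18), -2.09 (Phf11d) and -2.87 (Cxcl10). In KO, with minus without IL-4, the differences were -3.27 (Ifit1bl1), -2.79 (Ifit3), -2.78 (Oasl1), -2.41 (Mx1), -2.36 (Usp18), -2.06 (Ifit1) and -2.03 (Phf11d).

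In other genes the signed difference, KO minus WT, was positive: 7.09 (Pde4b), 4.92 (Ppp1r3c), 4.40 (Smoc2), 4.27 (Ccer1), 3.20 (Gm29771), 3.10 (Sema4b), 3.09 (Atg4b) and 2.38 (Morn4). For Ppp1r3c, Ccer1 and Morn4 the response was the larger in WT, at -5.55, -3.40 and -2.65 against -0.63, 0.87 and -0.27 in KO. The 7.09 of Pde4b stands on 1 of its 6 probe sets, and the other 5 changed by -0.60 to 0.02 in KO with IL-4. The other probe set of Ppp1r3c changed by 1.83 in KO with IL-4, and that of Smoc2 by -0.40 against 1.91. Lhx2 differed by -6.75, Enpep by -4.64 and Nfkbiz by -3.47. The Nfkbiz value starts from WT IL-4 vehicle arrays close to the lowest ratio in the data. With minus without IL-4 in KO, Sema4b differed by 4.65 and Mmp12 by 1.91. Enpep differed by -5.95, Ptx3 by -5.90, Rai14 by -4.94 and Lnpk by -4.12. In KO with IL-4 the other 3 probe sets of Rai14 changed by 0.46, -0.11 and 1.04 against -1.46, and the other 2 of Lnpk by 0.05 and 0.44 against -2.13. The KO control RSG arrays that enter these values had stromal marker means of 1.15, 1.52 and 5.55, whose part was not tested.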

How the results depend on the processing

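Fitting the compared arrays alone left 0 probe sets called in KO with IL-4, WT with IL-4 and KO without IL-4, and 0 interferon-stimulated genes. For the genotype difference it left 22 higher and 53 lower, and for the IL-4 difference 1 higher, 4 lower and 1 interferon-stimulated gene. The methods' t-test gave 1 call higher and 0 lower in KO with IL-4, 0 interferon-stimulated genes, and 0 calls in WT with IL-4 and in KO without it. The 12 KO arrays gave 30 higher. Quantile normalization gave 94 higher and 97 lower in WT, 68 and 58 in KO without IL-4, 6 and 37 for the genotype difference with 7 interferon-stimulated genes, and 1 and 11 for the IL-4 difference with 1. Centring gave 57 and 43 in KO without IL-4 and 7 and 69 for the IL-4 difference. The variance trend gave 6 and 47 for the IL-4 difference, and the median filter 49 lower in KO without IL-4. Without the 3 arrays that stood apart, the IL-4 difference had 10 higher.

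With the mouse as a replicate block, KO with IL-4 had 55 higher and 183 lower, the genotype difference 28 higher, and the IL-4 difference 1 higher with 5 interferon-stimulated genes. No other count moved by over 1.5 times under the block.

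Leaving out single mice or arrays gave 12 to 67 higher and 60 to 187 lower in KO with IL-4, with 10 to 17 interferon-stimulated genes. It gave 51 to 125 and 57 to 137 in WT and 5 to 30 and 5 to 31 in KO without IL-4. The genotype difference had 3 to 31 higher and 27 to 101 lower with 7 to 14 interferon-stimulated genes, and the IL-4 difference 0 to 4 and 0 to 24 with 0 to 6. Fewer arrays lower the degrees of freedom; other causes were not tested.

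Sign changed in genes that were not called: Stat6 to -0.01 under quantile normalization and, with mice or arrays left out, Pdk4 from -0.30 to 2.85, Retnla from -0.03 to 0.49, Ppp1r3c from -1.55 to 0.02, Morn4 from -0.58 to 0.25 and Nfkbiz from -0.18 to 0.12.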
